A study of Mus musculus with 4 samples.

Results

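The neutrophil-rich spots were the places in 2 post-ischemic mouse kidney sections where S100a8 and S100a9 took up the largest share of the captured RNA. S100a8 and S100a9 are small calcium-binding proteins that pair with each other and fill the cytoplasm of neutrophils. In each ischemic section, spots under tissue with at least 2000 unique molecular identifiers (UMIs, 1 per captured RNA molecule) were ranked by the summed share of both genes, and the top 5% were taken. This gave 117 of 2343 spots in ischemic section 1 and 125 of 2508 in ischemic section 2, together 242 of 4851 spots, among 10312 tissue spots in the 4 sections analysed. They were compared with the spots of the same section that held 0 UMIs of both genes, called zero spots here (1245 and 1524), while the remaining 981 and 859 spots are called other positive spots. In what follows, pairs of values give ischemic section 1 first and ischemic section 2 second, and levels are UMI counts per 1000000 UMIs (CPM) of the summed spots.

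The kidneys came from male wild-type C57BL/6J mice aged 7 to 8 weeks. The ischemic kidneys had both renal pedicles clamped for 30 min and were taken 24 h later, while the normal kidneys were labelled as controls with no clamping described for them, and the left kidney was snap-frozen and cut at 10 µm. There were 2 ischemic and 2 normal sections, all with the same slide number in their labels. Because each section was a block, p-values measure how far the differences between groups of spots varied between sections. No source used here tells which mouse each section came from, so this spread may be technical. The comparison with zero spots left 3 residual degrees of freedom, and the estimate of the spread was shared across genes. The assay, Visium, places a tissue section on a grid of barcoded capture spots, of which every one covers a small area that can hold several cells of different types. A low level in a spot therefore cannot tell fewer cells of a type from less RNA per cell.

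Neutrophils are short-lived white blood cells that are made in the bone marrow and are the first to arrive at injured tissue. They follow CXC chemokines through the receptor CXCR2, roll and stick by selectins and integrins, and act through granule enzymes and an NADPH oxidase that makes superoxide. Granule proteins such as myeloperoxidase and elastase are transcribed early, in bone marrow precursors, so mature neutrophils in tissue hold the proteins but little of their mRNA. In the post-ischemic kidney, white blood cells are known to gather in the congested outer medulla, whose outer stripe holds the straight part of the proximal tubule.

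Total depth was between 25957128 and 44528078 UMIs per section. The median depth of the neutrophil-rich spots was 11774 and 8899 UMIs, against 10595 and 8044 in zero spots and 13840 and 11470 in the other positive spots. No spot had the same counts in 2 sections. With these depths, a gene with 0 counts over all 2717528 UMIs of the neutrophil-rich spots could still have a level of up to 1.10 CPM, by 3 counts of the total, which covers counting error only.

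The genes that chose the spots are adjacent members of the S100 family on chromosome 3, S100a8 on the plus strand at chr3:90668978-90670035 and S100a9 on the minus strand at chr3:90692632-90695721 (GENCODE annotation of GRCm38). Their promoters are shown together with that of Retnlg, a neutrophil gene that the choice did not use, because these genes were high in the same spots. The sequences are from RefSeq on GRCm38.p6, from 250 bases before RefSeq's start of the gene to 50 bases from it, in the direction of the gene, and RefSeq's start can differ from the GENCODE start given above, as it does for S100a8. Capitals mark matches to the C/EBP core letters TTGCNNAA or the PU.1 letters GAGGAA on either strand, and a match on the other strand is printed as its reverse complement, TTCCTC for PU.1. No match of one overlapped a match of the other in these promoters. S100a8 lies at chr3:90668821-90669120 on the plus strand, S100a9 at chr3:90695672-90695971 on the minus strand and Retnlg at chr16:48872358-48872657 on the plus strand.

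S100a8: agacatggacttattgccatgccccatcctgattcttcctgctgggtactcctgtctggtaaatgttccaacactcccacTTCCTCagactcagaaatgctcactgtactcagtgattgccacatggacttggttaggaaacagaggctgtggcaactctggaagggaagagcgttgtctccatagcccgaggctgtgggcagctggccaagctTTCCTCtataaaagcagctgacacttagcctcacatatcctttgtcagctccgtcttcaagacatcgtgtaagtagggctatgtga

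S100a9: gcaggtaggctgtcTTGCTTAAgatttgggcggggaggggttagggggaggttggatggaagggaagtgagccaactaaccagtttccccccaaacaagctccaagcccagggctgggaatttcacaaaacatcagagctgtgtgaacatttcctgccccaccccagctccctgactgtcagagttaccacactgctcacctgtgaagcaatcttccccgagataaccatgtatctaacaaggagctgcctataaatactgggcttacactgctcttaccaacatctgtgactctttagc

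Retnlg: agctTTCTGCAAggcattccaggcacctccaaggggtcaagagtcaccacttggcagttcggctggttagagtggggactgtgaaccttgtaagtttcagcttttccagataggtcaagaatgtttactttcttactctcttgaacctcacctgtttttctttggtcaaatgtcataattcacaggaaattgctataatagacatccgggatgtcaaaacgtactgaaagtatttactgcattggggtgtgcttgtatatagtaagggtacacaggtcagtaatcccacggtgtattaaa

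The S100a8 promoter held 2 matches of the PU.1 letters, and the S100a9 and Retnlg promoters held 1 match each of the C/EBP letters. Of the 21 mature neutrophil genes that rose in the comparison below, 18 had a promoter in the table, of which 11 (61.1%) held the PU.1 letters and 3 (16.7%) the C/EBP letters. Among all 32851 promoters of the same length the shares were 28.3% and 10.8%. A match is a description of the letters in this window and not a binding site.

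The neutrophil-rich spots were chosen by S100a8 and S100a9, so the levels of these genes are a description without a test. The S100a8 level was 811 and 833 CPM and the S100a9 level 905 and 920 CPM in the neutrophil-rich spots. The share of both genes ranged from 0.0692% to 0.944% in section 1 and from 0.0673% to 0.831% in section 2, with medians of 0.129% and 0.128%. Just outside the limit, the next spots were at 0.0691% and 0.0658%, so the limit divides a continuous range. A neutrophil-rich spot held 4 to 138 UMIs of both genes in section 1 (median 16) and 2 to 90 in section 2 (median 13). The neutrophil-rich spots held 49.5% and 54.0% of all UMIs of both genes in 4.62% and 4.97% of the UMIs of their sections. In the normal sections, S100a8 gave 15 and 16 UMIs and S100a9 28 and 23 UMIs over all spots, 31 of 2568 and 29 of 2532 spots were positive, and no spot reached the limit of either ischemic section, the highest share being 0.0275% and 0.0325%.

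**Figure D1:**
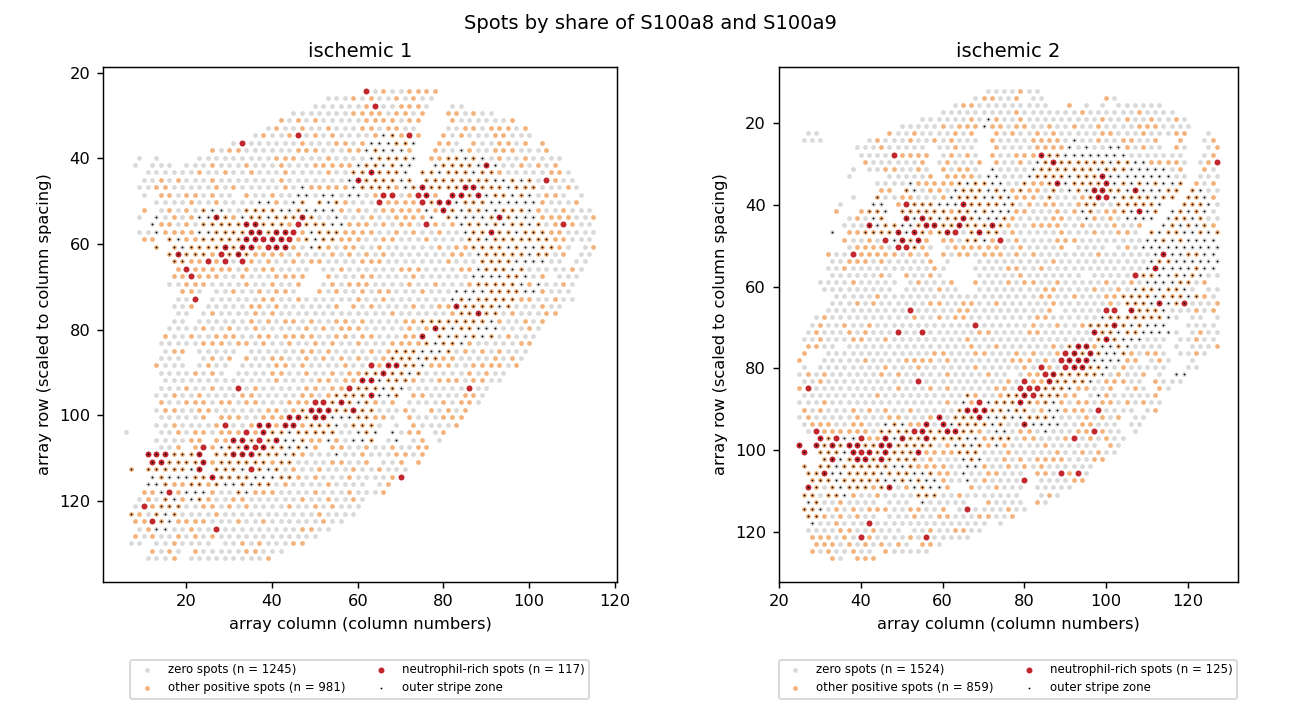
Position of the spots of each ischemic section on the array, with array columns on the x axis and array rows on the y axis, both in column spacings, so that neighbours in a row are 2 apart. Red points are the 117 and 125 neutrophil-rich spots, orange points the other positive spots, grey points the zero spots, and black dots mark spots of the outer stripe zone, in which 64.1% and 64.0% of the neutrophil-rich spots lie.

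The neutrophil-rich spots gathered in the outer stripe. Zones were assigned from marker genes of the tubule segments, read over each spot and its neighbours. Of the neutrophil-rich spots, 64.1% (95% Clopper-Pearson interval 54.7 to 72.8, counting error only) and 64.0% (54.9 to 72.4) lay in the outer stripe zone, compared with 15.4% (13.5 to 17.5) and 16.8% (15.0 to 18.8) of the zero spots. The cortex zone held 10.3% and 10.4% of the neutrophil-rich spots but 47.6% and 38.1% of the zero spots. Seen from the zones, 12.3% and 11.9% of all outer stripe spots were neutrophil-rich, against 1.3% and 1.5% of cortex spots, 2.84% and 2.94% of inner stripe spots and 3.53% and 4.41% of inner medulla spots. In the pelvis zone the share was 7.92% (3.48 to 15.0) of 101 spots and 2.36% (0.490 to 6.75) of 127 spots, with overlapping intervals. The median depth below the tissue edge was 7 and 6 array steps for the neutrophil-rich spots and 5 and 4 steps for zero spots.

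**Figure D2:**
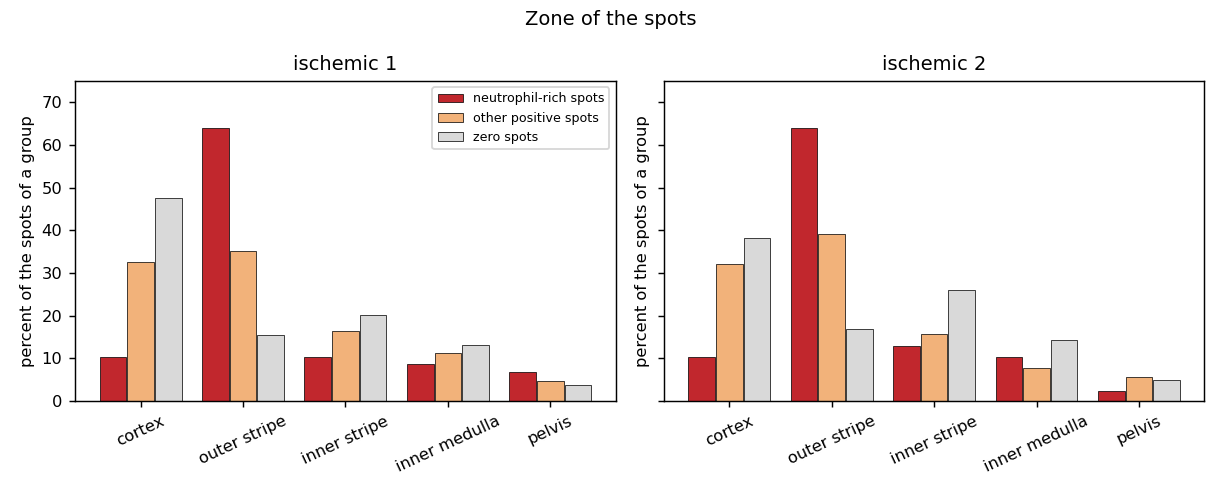
Zone of the spots, as percent of the spots of each group, for neutrophil-rich (red), other positive (orange) and zero spots (grey) in each ischemic section. The red bars stand at 64.1% and 64.0% in the outer stripe, and the grey bars are highest in the cortex.

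The neutrophil-rich spots also lay next to each other. At least 1 of the up to 6 adjoining spots was neutrophil-rich for 68.4% (59.1 to 76.7) and 61.6% (52.5 to 70.2) of them, compared with 15.0% (13.6 to 16.6) and 17.1% (15.6 to 18.7) of all other spots. They formed 50 and 65 connected patches, the largest of 22 and 12 spots, while 37 and 48 spots stood alone. Neighbouring spots are not independent, so these shares were not tested.

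Mature neutrophil genes other than S100a8 and S100a9 were far higher in the neutrophil-rich spots than in zero spots of the same sections. Both groups were summed within each section, S100a8 and S100a9 were left out of the sums, and for all other genes edgeR's quasi-likelihood test was run with the section as a block and p-values were adjusted by the Benjamini-Hochberg method. Across all genes, 3059 of 14641 passed an adjusted p of 0.05 (20.9%), 1339 higher (9.15%) and 1720 lower (11.7%), and the median log2 fold change was -0.10. DESeq2, with another scaling and a median of 0.00, called 1757 genes, 1058 higher and 699 lower, and edgeR called 727 without ischemic section 1 and 1080 without ischemic section 2. Of 27 mature neutrophil genes, 23 had enough counts to be tested, of which 21 rose, 1 fell and 1 did not pass, and their median log2 fold change was 4.54 (4.51 with Acod1, which had 0 counts in zero spots, at its lower bound). Since the spots were picked for 2 neutrophil genes, this list checks the label of the spots and is not a finding about them.

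Retnlg, a resistin-like protein secreted by neutrophils, was at 123 and 136 CPM in the neutrophil-rich spots and at 2.52 and 2.38 CPM in zero spots. Its log2 fold change was 5.66 ± 0.18 (SE, n = 2 sections, edgeR adjusted p = 7.86e-55), which is 48.7- and 56.9-fold in the separate sections. Csf3r, the receptor for the growth factor G-CSF, was at 23.7 and 29.6 CPM against 0.954 and 0.721 CPM, a log2 fold change of 4.92. Cxcr2, the receptor that guides neutrophils along CXC chemokines, was at 7.67 and 10.9 CPM against 0.0682 and 0.505 CPM (log2 fold change 4.95). Il1b, the gene of the cytokine interleukin-1β, was at 57.9 and 41.3 CPM against 2.73 and 1.66 CPM (4.45). In each of these genes both neutrophil-rich sums lay above both zero sums. With 2 sums per group this is a description only, and how many of all tested genes did so was not counted. Slfn4 rose by 5.83 and the gelatinase Mmp9 by 5.53 on the log2 scale. Acod1, which makes itaconate in activated myeloid cells, had 6 and 7 counts in the neutrophil-rich spots and 0 in zero spots, so its level was at least 20.5- and 25.2-fold higher against a floor of 3 counts per section. Ly6g, the gene of a common neutrophil surface marker, had only 1 and 2 counts in the neutrophil-rich spots and was not tested.

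The exceptions on the list were genes with high levels in zero spots as well. G0s2, an inhibitor of fat breakdown, was at 85.8 and 66.2 CPM in the neutrophil-rich spots and at 114 and 89.2 CPM in zero spots and fell by 0.46 on the log2 scale (edgeR adjusted p = 0.000801). Msrb1, a methionine sulfoxide reductase, was at 188 and 189 CPM against 221 and 186 CPM and did not pass (log2 fold change -0.15, adjusted p = 0.26). All 27 mature neutrophil genes summed to 800.2 and 729 CPM in the neutrophil-rich spots, 357 and 337 CPM in the other positive spots and 353 and 293 CPM in zero spots. Without these 2 genes, left out for a level above 5 CPM in zero spots, a limit set after the values were seen, the 25 other mature neutrophil genes summed to 526 and 473 CPM in the neutrophil-rich spots, 52.8 and 50.7 CPM in the other positive spots and 18.8 and 18.5 CPM in zero spots. At least 1 UMI of these 25 genes was found in 92.3% and 92.0% of the neutrophil-rich spots and in 18.7% and 14.5% of zero spots. After each spot was thinned to 2000 UMIs the shares were 51.3% (41.9 to 60.6) and 56.0% (46.8 to 64.9) against 4.26% (3.20 to 5.53) and 3.87% (2.96 to 4.97). In zero spots of the normal sections the thinned share was 2.09% (1.57 to 2.72) and 2.60% (2.01 to 3.30).

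**Figure D3:**
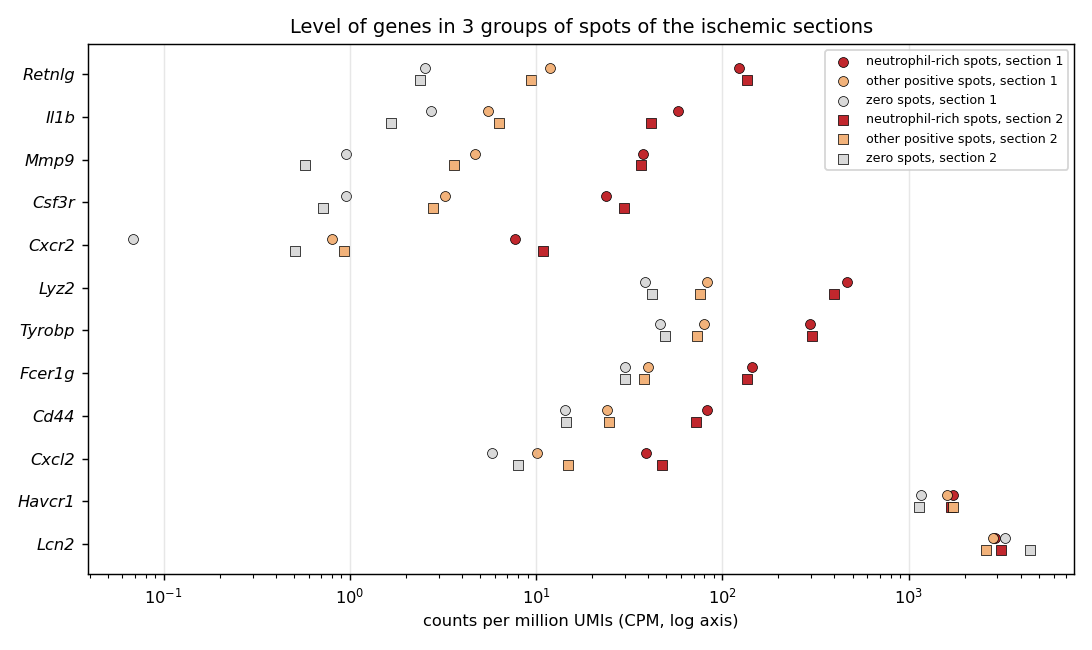
Level of 12 genes in CPM, on a log axis, in the neutrophil-rich (red), other positive (orange) and zero spots (grey) of ischemic section 1 (circles) and section 2 (squares), with 1 summed value per section and group. For the neutrophil genes at the top, red points lie above the orange and grey ones in both sections, while for Havcr1 and Lcn2 the groups lie close together, with Havcr1 at 1722 and 1681 CPM in the neutrophil-rich spots.

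Genes of neutrophil precursors were mostly at or near 0 in the neutrophil-rich spots. Of 11 granule and precursor genes, Mpo (myeloperoxidase), Elane (elastase), Ctsg (cathepsin G), Ltf (lactoferrin), Camp, Ms4a3 and Fcnb had 0 counts in the neutrophil-rich spots of both sections. Ngp, a granule protein, had a level of 0.698 and 0.779 CPM there. The exception was Chil3, a chitinase-like protein that monocytes and macrophages also make, at 178 and 124 CPM against 5.66 and 7.28 CPM (log2 fold change 4.51 ± 0.15, edgeR adjusted p = 1.02e-53). Only 2 genes of this list had enough counts to be tested, and the other one did not pass.

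Cytosolic subunits of the NADPH oxidase rose, and its membrane subunits did not pass the test. Ncf1, which organises the complex, was at 22.3 and 24.1 CPM against 3.07 and 2.24 CPM (log2 fold change 3.07). Ncf4, another cytosolic subunit, rose by a log2 fold change of 2.98 and the small GTPase Rac2 by 2.94. Cybb, the catalytic subunit, was at 3.49 and 2.34 CPM against 1.77 and 1.15 CPM (adjusted p = 0.37, edgeR), and Cyba, its partner, at 381 and 428 CPM against 352 and 317 CPM (adjusted p = 0.0585).

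Among genes that attract neutrophils or drive their production, 7 of 10 tested rose (12 on the list, median log2 fold change 2.32). Cxcl2, a ligand of CXCR2, was at 39.1 and 47.5 CPM in the neutrophil-rich spots, 10.1 and 14.8 CPM in the other positive spots and 5.79 and 8.01 CPM in zero spots, a log2 fold change of 2.61 ± 0.21 (edgeR adjusted p = 2.35e-20). Cxcl3, a related ligand, rose by 3.74, Ppbp, a platelet-borne chemokine, by 3.09, and the cytokine Il6 by 2.41 on the log2 scale. Cxcl1, another CXCR2 ligand, was at 41.2 and 54.5 CPM against 22.3 and 25.8 CPM (0.94). Csf3, which encodes G-CSF, was at 2.09 and 0.779 CPM against 1.3 and 1.66 CPM and did not pass (adjusted p = 0.98), nor did Tnf or Ccl3. Of 8 monocyte attractants 4 rose and 4 did not pass (median log2 fold change 0.77). Ccl2, the main ligand of the monocyte receptor CCR2, was at 100 and 80.2 CPM against 7.02 and 8.08 CPM (3.54 ± 0.16, adjusted p = 2.76e-39). Ccl7 (3.40), Cxcl14 (1.78) and the macrophage growth factor Csf1 (1.16) were the other risers.

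Adhesion genes of white blood cells rose, whereas those of the vessel wall were split. Of 8 adhesion genes tested (9 on the list), 7 rose, with a median log2 fold change of 2.49. The white blood cell side comprised Selplg, the ligand of P-selectin, at 19.5 and 31.1 CPM against 1.98 and 2.38 CPM (3.48), the integrin subunits Itgam (3.30), Itgal (2.81) and Itgb2 (2.58), and the hyaluronan receptor Cd44. On the vessel side, P-selectin itself, Selp, which platelets also carry, rose by 2.10 from low levels (4.19 and 5.45 CPM against 0.682 and 1.51 CPM) and Vcam1 by 0.68, while Icam1 was at 53.7 and 46.7 CPM against 64.7 and 58.9 CPM (adjusted p = 0.0546, edgeR). Sele, the endothelial E-selectin, had 0 counts in the neutrophil-rich spots, and also in the zero spots of the outer stripe zone. Of 10 endothelial genes, 5 rose, 1 fell and 4 did not pass (median log2 fold change 0.38), among them Kdr, the VEGF receptor, at 43.3 and 38.9 CPM against 23.4 and 23.1 CPM (0.78). Of 5 platelet genes, 4 were tested and 2 rose, Ppbp and the platelet factor Pf4, the latter at 64.9 and 60.0 CPM against 11.2 and 10.7 CPM (2.46). Gp9 and Gp1bb, which define platelets, had 0 counts in the neutrophil-rich spots, and also in the zero spots of the outer stripe zone.

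Signalling adapters of immune receptors, and most Fc receptors, were higher in the neutrophil-rich spots. Fcer1g, the common γ chain of Fc receptors, was at 144 and 136 CPM in the neutrophil-rich spots, 40.0 and 37.7 CPM in the other positive spots and 29.9 and 30.1 CPM in zero spots, a log2 fold change of 2.18 ± 0.11 (edgeR adjusted p = 3.81e-36). The related adapter Tyrobp was at 297 and 301 CPM against 46.4 and 49.1 CPM (2.60). The low-affinity receptor Fcgr3 rose by 2.55, Fcgr1 by 2.55 and Fcgr4 by 1.96, while the inhibitory receptor Fcgr2b, at 18.8 and 27.3 CPM against 17.1 and 16.8 CPM, did not pass. On the list of 6 genes, which holds the adapters Fcer1g and Tyrobp beside the Fcgr receptors, 5 rose (median log2 fold change 2.37). The neutrophil-rich spots held 16.7% (14.6 to 18.9) and 17.6% (15.3 to 20.1) of the Fcer1g counts of their sections, in 4.62% and 4.97% of the UMIs, so most Fcer1g counts lay outside them. For Retnlg these shares were 45.2% (40.2 to 50.3) and 56.7% (50.9 to 62.3).

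Markers of monocytes and macrophages moved with the neutrophil genes, unevenly. Of 13 genes, 9 rose and 4 did not pass (median log2 fold change 1.20). Lyz2, the lysozyme of neutrophils, monocytes and macrophages, was at 467 and 396 CPM against 38.2 and 41.8 CPM (3.38 ± 0.09, edgeR adjusted p = 4.84e-63). The monocyte genes Ly6c2 (3.66) and Ccr2 (3.34) also rose. Genes of resident macrophages rose less or did not pass, with Cd68 at 1.34, the complement gene C1qa at 44.0 and 63.1 CPM against 33.4 and 37.0 CPM (0.55), and C1qc at 25.1 and 31.9 CPM against 24.1 and 23.5 CPM (adjusted p = 0.51). How much of any shared gene came from neutrophils and how much from monocytes was not tested.

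Lymphocyte markers were at or near 0 in the neutrophil-rich spots and low in zero spots as well, where the 9 T cell genes summed to 4.91 and 5.99 CPM, beside 4.88 and 1.56 CPM in the neutrophil-rich spots. In the neutrophil-rich spots these 9 genes gave 9 UMIs over both sections, with Cd3e, Trbc2 and Cd4 at 0, the 4 B cell genes to 1 UMI, and the 6 natural killer cell genes, among them Ncr1 and Nkg7, to 0 UMIs. No gene of these lists passed the test in the neutrophil-rich spots, of 7, 3 and 2 tested. Of the 11 genes that the study names for double-negative T cells, 6 were tested and 4 rose (median log2 fold change 1.60). These were Cd44, at 83.0 and 72.4 CPM against 14.2 and 14.5 CPM (2.39 ± 0.15, edgeR adjusted p = 2.39e-28), Fcer1g, the prothrombinase Fgl2 (1.74) and the phosphatase Dusp1 (1.46), all of which myeloid cells also express. Kcnq5, Klrb1c, Klre1, Xcl1, Klrc1 and Trgv2 of the same list had 0 counts. The study found the genes of this list other than Cd44 higher in double-negative T cells that it sorted from control kidneys. It describes Cd44 as marking a major subset of these cells and used it as an immune marker captured well enough in its spatial data. The list is therefore not independent evidence of a direction.

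The tubule lists differed by segment. All 6 genes of the proximal convoluted tubule, which lies in the cortex, fell (median log2 fold change -1.48), such as the organic anion transporter Slc22a6, at 73.3 and 85.7 CPM against 259 and 230 CPM. Of 5 genes of the proximal straight tubule 3 rose (median 1.01), with Serpina1f, a serpin, at 197 and 201 CPM against 51.3 and 56.5 CPM (1.84) and the steroid hydroxylase Cyp7b1 at 1.87. These 5 genes are also those that mark the outer stripe zone. Of 4 genes of the thick ascending limb 2 fell, Slc12a1 and Cldn10, of 3 genes of the distal convoluted tubule 2 fell, Calb1 and Slc12a3, and of 5 genes of the collecting duct and inner medulla 4 fell. No podocyte gene of 3 passed. Among the 10 largest falls of genes with an average log2 CPM of at least 5 were Klk1, tissue kallikrein, at 233 and 204 CPM against 1581 and 1209 CPM (-2.71), Tmem52b (-2.38), Calb1 (-2.25) and the cytochrome P450 Cyp2a5 (-2.17). Among the 10 largest rises above the same level, beside Lyz2, Tyrobp and Fcer1g, were the lymphocyte and myeloid antigen Cd52 (2.73), the matrix protein Thbs1 (2.30), the small heat shock protein Cryab (2.30), the protease inhibitor Slpi (2.24, and 0.31 with adjusted p = 0.0647 within the outer stripe zone) and Srgn (2.10), the proteoglycan of secretory granules.

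Genes of tubular injury went different ways. Of 13 genes, 8 rose, 3 fell and 2 did not pass (median log2 fold change 1.04). The keratin Krt20 was at 479 and 480 CPM against 130 and 145 CPM (1.76), Krt8 rose by 1.14, the stress transcription factors Atf3 by 1.38 and Fosl1 by 1.36, and the cell cycle inhibitor Cdkn1a by 1.07. Cryab, at 7239 and 6584 CPM against 1330 and 1391 CPM, is on this list and also one of the genes that mark the inner medulla zone. Havcr1, the kidney injury molecule KIM-1 of proximal tubules, was at 1722 and 1681 CPM against 1167 and 1143 CPM (0.51 ± 0.08, edgeR adjusted p = 2.3e-07), but -0.41 within the outer stripe zone. Lcn2, the lipocalin NGAL, which injured distal tubules and neutrophils both make, was at 2917 and 3152 CPM against 3284 and 4465 CPM and fell by 0.39 on the log2 scale, while within the outer stripe zone it rose by 0.66. The secreted proteins Spp1 and Clu fell by 0.43 and 0.31, but within the outer stripe zone Clu was higher in the neutrophil-rich spots (0.26, adjusted p = 0.0439) and Spp1 did not pass (adjusted p = 0.996).

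Since most neutrophil-rich spots lay in the outer stripe, the comparison was repeated with spots of that zone only. This set 75 and 80 neutrophil-rich spots against the zero spots there. The neutrophil-rich spots were the shallower group in this zone, with median depths of 12373 and 9301 UMIs against 15084 and 10968 in zero spots. Of 12253 genes tested, 1661 passed (13.6%), 536 higher (4.37%) and 1125 lower (9.18%). Of the mature neutrophil genes, 20 were tested, of which 18 rose, Msrb1 fell (-0.40, edgeR adjusted p = 0.000797) and G0s2 did not pass (-0.40, adjusted p = 0.101), with a median log2 fold change of 4.19, beside -0.06 over all genes. Retnlg was at 121 and 138 CPM against 2.63 and 2.30 CPM (5.55). Fcer1g was at 141 and 120 CPM against 25 and 23.0 CPM (2.30), Tyrobp rose by 2.69 and Ccl2 by 2.88. Of the 13 monocyte and macrophage genes 10 were tested and 9 rose, C1qa by 0.98 and C1qb by 1.04.

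Within the outer stripe, several other differences were smaller than over whole sections or had the opposite sign. Cxcl2 was at 35.2 and 48.6 CPM against 11.2 and 15.8 CPM (1.49), and it was the only one of 5 tested neutrophil attractants to rise, while Cxcl1 was at 41.4 and 53.2 CPM against 46.1 and 55.9 CPM (edgeR adjusted p = 0.42). Havcr1 was lower in the neutrophil-rich spots there, at 1995 and 2019 CPM against 2335 and 2472 CPM (log2 fold change -0.41, adjusted p = 0.000259), and Lcn2 was higher, at 2702 and 2586 CPM against 1592 and 1438 CPM (0.66, adjusted p = 3.23e-08). Krt20 rose by 0.36 instead of 1.76, and Cryab by 0.95 instead of 2.30. Of the straight tubule genes, which also mark this zone, 1 rose and 1 fell. The difference of the convoluted tubule genes was not smaller, with a median log2 fold change of -1.54 beside -1.48 over whole sections. Of these 6 genes, 3 fell and 3 did not pass, with Slc22a6 at 41.4 and 40.5 CPM against 150 and 168 CPM (-2.11). Other genes described here that passed over whole sections and not within the outer stripe included Serpina1f (0.21), Slpi (0.31), Fosl1 (0.29), S100a6 (0.29), Slc12a3 (-0.26) and Slc12a1 (-0.47), as well as Il6, Ppbp, Selp and Calb1, whose log2 fold changes there were 1.66, 2.52, 2.31 and -2.38. Whether the changes between the whole-section and outer stripe values were themselves larger than the spread was not tested.

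**Figure D4:**
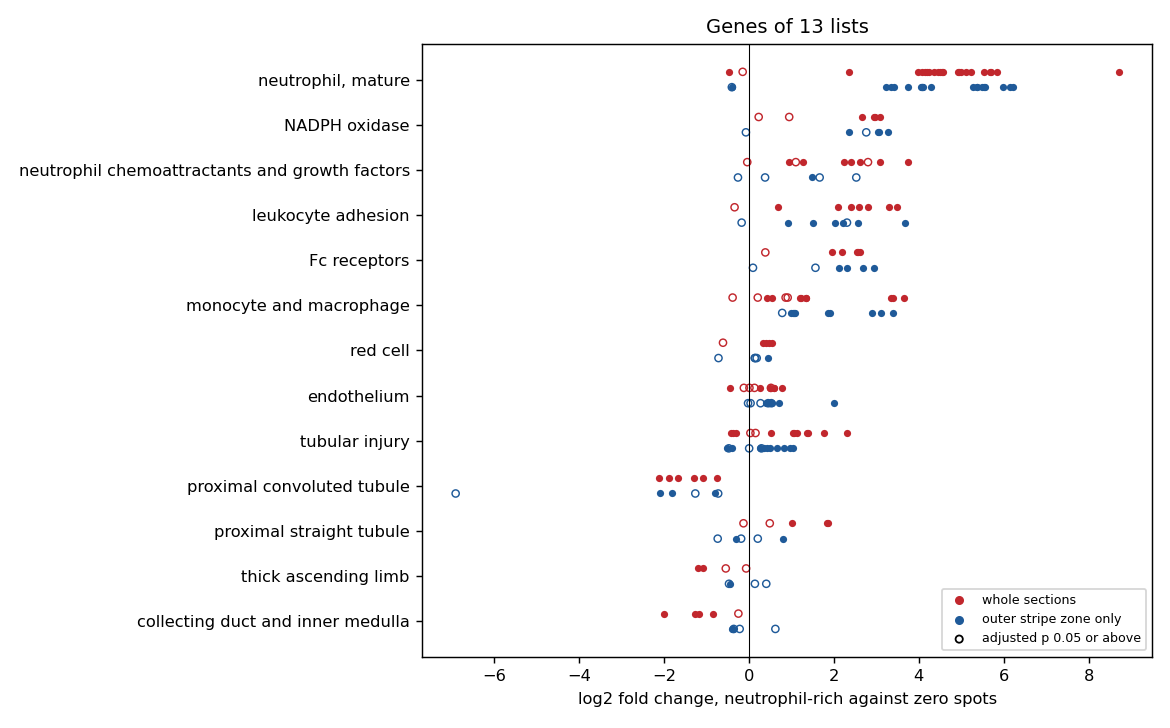
Log2 fold change of each tested gene of 13 lists, neutrophil-rich against zero spots, in the whole ischemic sections (red) and in the outer stripe zone only (blue), with open points for genes with an adjusted p of 0.05 or above. Mature neutrophil genes lie to the right in both (medians 4.54 and 4.19), and the point at the far right is the fitted value of Acod1, which is no bound. The straight tubule genes shift from a median of 1.01 to -0.19. They also mark the outer stripe zone, so the choice of zone by itself narrows their difference.

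The neutrophil-rich spots were next compared with zero spots within 3 array steps of one of them, a choice by distance alone. Of these nearby zero spots, 147 of 508 and 175 of 734 lay in the outer stripe zone, a smaller share than of the neutrophil-rich spots, so the zones of the groups still differed. Here 2280 of 14056 genes passed (16.2%), 1192 higher (8.48%) and 1088 lower (7.74%), and 516 and 851 passed without ischemic section 1 and 2. Of the calls against all zero spots, 2215 were made again in the same direction, which is 72.4% of those calls and 97.1% of these. Both comparisons share the neutrophil-rich spots, and the nearby zero spots are also part of all zero spots, so this overlap of calls is a description only. Of the 23 mature neutrophil genes tested, 21 rose and 2 did not pass (median log2 fold change 4.53, or 4.47 with Acod1 at its bound). Retnlg was at 3.66 and 2.55 CPM in nearby zero spots (log2 fold change 5.37). Fcer1g was at 24.7 and 29.9 CPM there (2.35, edgeR adjusted p = 1.15e-15). The straight tubule gene Serpina1f rose by 1.31 and the injury gene Krt20 by 1.34, and Lcn2 was at 2596 and 4209 CPM in nearby zero spots and did not pass (adjusted p = 0.40).

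Spots that only adjoined a neutrophil-rich spot, 335 and 407 of them, were compared with spots 4 or more steps away, whatever their own S100a8 and S100a9 counts. Of 14293 genes, 3137 passed (21.9%), 1634 higher (11.4%) and 1503 lower (10.5%), and 395 and 453 passed without ischemic section 1 and 2. Of 16 mature neutrophil genes tested, 9 rose beside the neutrophil-rich spots, 1 fell and 6 did not pass (median log2 fold change 1.28, beside -0.01 over all genes). Retnlg was at 15.3 and 8.16 CPM against 4.47 and 4.79 CPM (1.40, edgeR adjusted p = 5.09e-06), and Csf3r at 5.56 and 4.72 CPM against 1.12 and 0.684 CPM (2.52). Cxcl1 was at 49.4 and 46.6 CPM against 19.1 and 22.7 CPM (1.25) and Cxcl2 at 15.5 and 17.8 CPM against 4.69 and 6.06 CPM (1.67). Of genes with an average log2 CPM of at least 5, the largest rises, Cryab (2.31), Slc22a19 (2.23) and Serpina1f (2.22), included markers of the zones. Of 13 injury genes 10 rose, with Havcr1 at 1738 and 1721 CPM against 1058 and 1224 CPM (0.63). Within the outer stripe zone the same comparison gave -0.29 for Havcr1 (adjusted p = 0.024).

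By distance, the neutrophil genes dropped within the first step and the injury gene Havcr1 did not. S100a8 went from 811 and 833 CPM in the neutrophil-rich spots to 96.5 and 70.0 CPM at 1 step, 43.3 and 43.5 CPM at 2 steps and 28.5 and 30.3 CPM at 3 steps. The 25 neutrophil genes went from 526 and 473 CPM to 73.7 and 56.0 CPM at 1 step and 38.8 and 36.0 CPM at 2 steps. With G0s2 and Msrb1 included, the list was at 800.2 and 729 CPM, then at 346 and 305 CPM at 1 step and 350 and 301 CPM at 2 steps. Fcer1g went from 144 and 136 CPM to 49.6 and 44.4 CPM at 1 step and 28.9 and 33.6 CPM at 2 steps, and farther away it was higher again in section 1 (42.2 CPM at 6 to 9 steps and 43.7 CPM at 10 or more) but not in section 2 (27 and 22.6 CPM). Havcr1 was at 1722 and 1681 CPM in the neutrophil-rich spots, 1738 and 1721 CPM at 1 step, 1720 and 1493 CPM at 2 steps and 1271 and 1337 CPM at 4 to 5 steps. These levels are a description, since the distance was measured from spots chosen by S100a8.

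**Figure D5:**
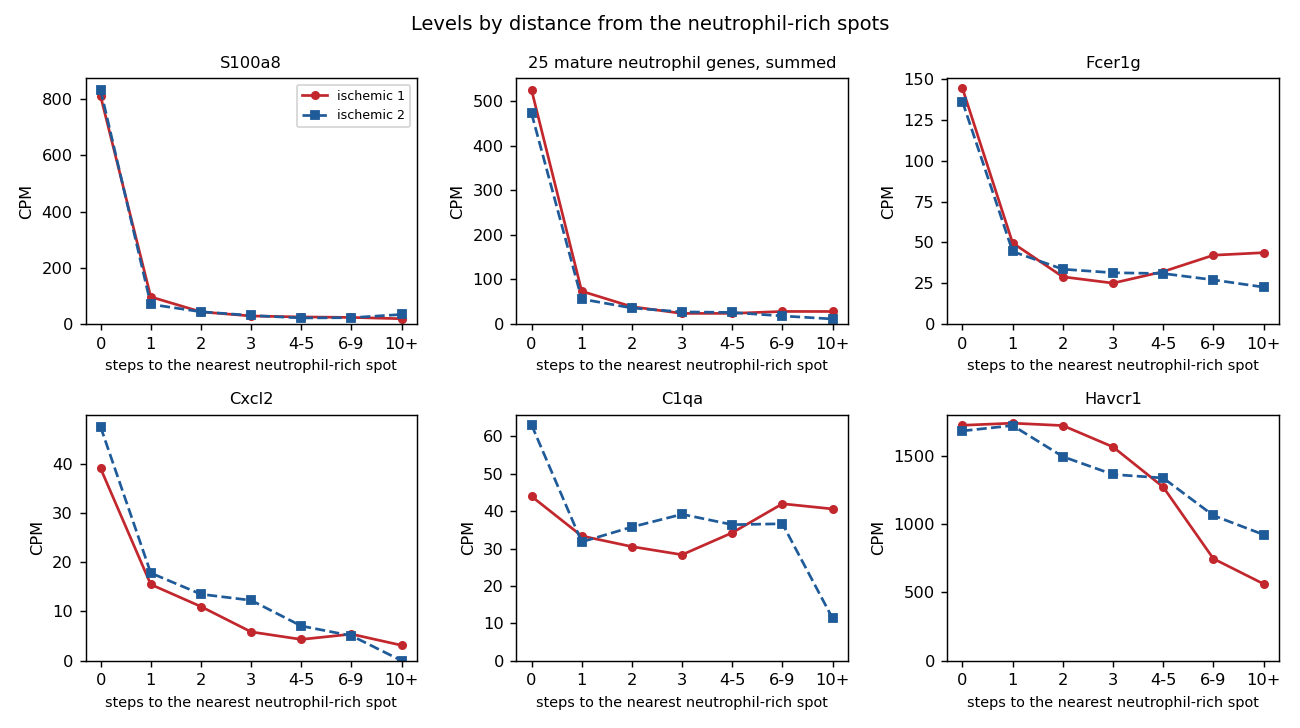
Level in CPM, with axes from 0, of S100a8, the 25 summed neutrophil genes, Fcer1g, Cxcl2, C1qa and Havcr1 against the distance to the nearest neutrophil-rich spot in array steps (0 is the neutrophil-rich spots), for ischemic section 1 (solid) and section 2 (dashed). S100a8, the neutrophil genes and Fcer1g drop at the first step, and Havcr1 stays at 1738 and 1721 CPM there. The last points rest on 48 and 49 spots.

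The neutrophil-rich spots varied among themselves. They were ranked by the share of S100a8 and S100a9 that also chose them, so these levels are a description, and the depth differed along the ranking, with median UMIs per spot from 9093 in the group with the highest share to 12606 in section 1 and from 7604 to 9952 in section 2. In 4 groups of 29 to 32 spots, from the highest share to the lowest, the 25 neutrophil genes were at 1141, 566, 299 and 252 CPM in section 1 and at 979, 435, 292 and 258 CPM in section 2. Fcer1g was lower along the same groups, from 304, 113 and 107 to 86.4 CPM in section 1 and from 230, 142 and 116 to 72.8 CPM in section 2. Havcr1 did not follow them, at 1540, 1564, 1929 and 1790 CPM and at 1350, 1495, 2002 and 1831 CPM. The group with the lowest share still held more of the 25 genes than the other positive spots, which were at 52.8 and 50.7 CPM.

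The S100 family beyond the genes that chose the spots was mixed, with 4 of 8 genes higher, 2 lower and 2 not passing (median log2 fold change 0.22). S100a4, a motility-associated member of white blood cells and fibroblasts, was at 75.3 and 63.9 CPM against 14.1 and 13.6 CPM (2.29). S100a6 rose by 1.11, though within the outer stripe zone it did not pass (0.29, adjusted p = 0.0944), and S100a11 by 0.46, while S100g, the calcium carrier of the distal tubule, fell by 1.23 on the log2 scale.

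As the background in control tissue, the few positive spots of the normal sections, 31 and 29, were compared with the zero spots there. With edgeR, 135 of 14641 genes passed (0.922%), 78 higher (0.533%) and 57 lower (0.389%), and 1333 had an unadjusted p under 0.05. DESeq2 called 57, 48 higher and 9 lower, and edgeR called 72 without ischemic section 1 and 70 without ischemic section 2, which share the estimate of the spread. Of genes with an average log2 CPM of at least 5, the leading rises were red cell genes, Hbb-bt (2.42), Hbb-bs (2.24), Hba-a1 (2.16) and Hba-a2 (2.15). Of 4 platelet genes tested 2 rose, Ppbp (3.96) and Pf4 (1.69), and of 7 T cell genes 2 rose, Cd3g (2.11) and Trbc2 (1.78). Among 23 mature neutrophil genes tested in these normal sections, 1 rose and 22 did not pass. In the ischemic sections 4 of 5 red cell genes rose in the neutrophil-rich against the zero spots, by 0.33 to 0.54 on the log2 scale, with Hba-a1 at 217 and 517 CPM against 189 and 325 CPM. Against nearby zero spots 2 of the 5 rose, Hba-a1 and Hbb-bs, and within the outer stripe zone only Hbb-bs (0.46). Without ischemic section 2 the log2 fold change of Hba-a2 was -0.01. The difference between all positive and zero spots was also tested between the ischemic and normal sections, where 146 of 14665 genes passed (0.996%), among them Fcer1g, Tyrobp and Lyz2, which differed more between positive and zero spots in the ischemic sections.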

How the data were processed

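Visium data of 4 kidney sections were used, 2 ischemic and 2 normal, grouped by their sample labels. Per the file headers and the submitters' processing notes, the authors used Space Ranger (1.3.0 in the matrix headers, build mm10) and deposited a matrix of raw UMI counts for each section, not normalized, together with the positions of the spots. No pooled column or column of another sample was present.

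The neutrophil-rich spots, gene lists and tests were chosen with earlier results of these data known. Counts were summed per section and group of spots, without S100a8 and S100a9, and tested with edgeR 4.0.16 in R 4.3.3 (filterByExpr, TMM scaling and the quasi-likelihood test, with Benjamini-Hochberg adjustment over all genes tested and a threshold of 0.05). The section was a block, because all groups of spots of a section come from the same tissue, and the normal sections shared the estimate of the spread. On simulated counts for the comparison with zero spots (14594 genes), edgeR recovered 66 of 100 genes changed 2-fold and 91 of 100 changed 4-fold, with 5 false calls. No p-value was computed from spots. Zones came from marker lists over each spot and its up to 6 neighbours. Distances are steps between adjoining spots. Intervals are 95% Clopper-Pearson intervals, and 0 counts were taken to allow up to 3.

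Named genes were S100a8, S100a9, Fcer1g, Cd44, Havcr1 and Lcn2, up to 4 genes with the largest change among those past the threshold in each of 27 lists (210 genes), all genes of lists of 6 or fewer, and the 10 largest rises and falls with the same direction in both sections and an average log2 CPM of at least 5 (5 each in the other comparisons). Further list members named in the text were chosen after their values were seen. The alternatives were DESeq2 1.42.0, no filter, no block, the ischemic sections alone, each section left out, other limits for the choice of spots (2.5%, 10%, 5000 UMIs, thinning to 2000 UMIs, S100a9 alone), other distances, and the outer stripe zone alone. The fit between conditions, the alternatives for the normal sections and the list of 25 genes were added after the data were seen. The study's other assays were not analysed here. Some genes of the lists are not reported here.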

Additional observations from a re-analysis of the deposited data

Results flagged for a closer look

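The difference between positive spots (the neutrophil-rich and other positive spots joined) and zero spots was tested between the ischemic and the normal sections in 1 edgeR model, in which 146 of 14665 genes passed (0.996%), 92 higher and 54 lower in the ischemic contrast. Without normal section 2 this count was 316, without ischemic section 1 it was 41, without ischemic section 2 it was 29, and DESeq2 called 43. Among the genes named here, 11 differed between the conditions. Genes were named partly for large changes in the other comparisons of these same spots. The count of 11 is therefore a description and cannot be set against the share over all genes.

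The genes with a larger log2 fold change in the ischemic than in the normal sections included 3 expressed in white blood cells. For Fcer1g the log2 fold change was 0.77 in the ischemic and -0.37 in the normal sections, a difference of 1.14 ± 0.28 (edgeR adjusted p = 0.0133). The difference was 1.24 for Tyrobp (1.11 against -0.14) and 1.47 for Lyz2 (1.57 against 0.10). The zone marker Cryab differed by 1.11, Serpina1d by 1.39 and Slc22a19 by 1.37.

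Red cell genes went the other way, with a larger log2 fold change in the normal than in the ischemic sections. The difference was -1.32 for Hba-a1 (0.83 against 2.16), -1.38 for Hba-a2, -1.41 for Hbb-bs and -1.44 for Hbb-bt. Alas2, the first enzyme of heme synthesis in red cell precursors, differed by -1.21 ± 0.29 (adjusted p = 0.0123).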

How the results depend on the processing

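The counts rest on 2 ischemic and 2 normal sections. The comparison with all zero spots called 3059 genes, and 727 to 3114 with 1 section left out. The comparison with nearby zero spots called 2280 (516 to 2322), that of adjoining with distant spots 3137 (395 to 3547), that within normal sections 135 (70 to 143) and that between conditions 146 (29 to 316). With no replicate block, so without the pairing of spot groups by section, the first 4 counts were 1912, 1446, 1322 and 23. With DESeq2 the comparison with all zero spots called 1757, the adjoining spots 1302, the normal sections 57 and the conditions 43. Within the outer stripe the counts were 1661, 1169 and 1278, with fewer spots. Adjoining against distant spots gave 2065 with distant spots from 6 steps and 1769 with the top 10% of spots. The cause was not tested for any of these beyond the smaller number of sections or spots.

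Of the named genes past the threshold, 94 were followed in the comparison with all zero spots over 1312 gene and setting pairs, of which 1187 stayed past it in the same direction, 119 did not pass and 6 reversed. For nearby zero spots these were 86 genes, 1370 pairs, 1247, 119 and 4, and for adjoining spots 91 genes, 1448 pairs, 1155, 281 and 12. Most reversals came within the outer stripe zone. There, against all zero spots, the log2 fold change was -0.41 for Havcr1, 0.66 for Lcn2, -0.066 for Mettl7a2, 0.62 for Slc14a2 and -0.74 for Slc22a13. Against nearby zero spots it was -0.33 for Havcr1, 0.26 for Psca, 0.59 for Slc14a2 and 1.10 for Upk3a. For adjoining spots it was 0.48 for Aqp2, 0.28 for Fxyd4, -0.29 for Havcr1, -0.25 for Hbb-bt, 0.84 for Ifit3, 0.0034 for Itga2b, 0.79 for Lcn2, 0.29 for Ptger3, 0.59 for Slc14a2, -0.23 for Slc22a13 and -0.86 for Upk1a. With S100a9 alone, Hbb-bt was at -0.063 in adjoining spots. Hba-a2 ranged from -0.0089 to 0.59 with 1 section left out. Of the spots chosen by S100a9 alone, 83.8% and 81.6% were among the neutrophil-rich spots, and of those chosen after thinning, 67.5% and 72.8%.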

Other observations

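In 4 further lists, 1 or 2 genes passed in each, beside 20.9% over all genes tested. Of 6 tested genes of the inflammasome and of lytic cell death (7 on the list), 1 rose against zero spots, Il18, at 7.67 and 6.23 CPM against 2.59 and 2.74 CPM (log2 fold change 1.34, edgeR adjusted p = 0.0213), and the median was 0.70. Of 8 genes of the response to low oxygen, Adm, a vessel-relaxing peptide, rose by 1.18 and Bnip3, a mitophagy receptor, fell by 0.83, while 6 did not pass (median -0.14). Of 5 interferon response genes 1 rose, Isg15, at 42.6 and 38.2 CPM against 19.4 and 24.3 CPM (0.85). Of 6 urothelium genes 2 fell and 4 did not pass (median -0.99). Within the outer stripe zone neither Il18 (1.22) nor Adm (0.43) passed.

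When spots were chosen by S100a9 alone, S100a8 was at 742 and 759 CPM in them.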
